A study of Mus musculus with 4 samples.

Results

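The gene set described here is the protein-folding machinery of the endoplasmic reticulum (ER) and the stress response that controls it, 32 genes chosen by symbol out of 55414 genes listed in the deposited table. Each of the 32 symbols matched 1 row of the table. They comprise 13 chaperones and folding factors, 6 genes of ER-associated degradation, 9 genes of the translocon and the associated TRAP complex, and 4 genes of stress sensing, namely the sensors Ern1, Atf6 and Eif2ak3 and the transcription factor gene Xbp1. Their RNA was measured by sequencing in peritoneal macrophages of the mouse, immune cells of the abdominal cavity. LUP at 0.5 mg/ml was present for 24 h in 2 libraries, and complete medium, the vehicle, for the same time in the other 2. The labels do not spell out LUP, and strain, age and sex of the animals are not given in the sources used here. No source says that libraries within a group are from different animals or cultures, so p-values measure the spread between these libraries, which may be technical.

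Proteins that are secreted or built into membranes enter the ER through the Sec61 channel and are folded there by chaperones, among them the Hsp70 protein BiP, and by enzymes that form disulfide bonds. Proteins that do not fold are pulled back into the cytosol and destroyed, a route called ER-associated degradation. When folding demand exceeds capacity, 3 sensors in the ER membrane (IRE1, ATF6 and PERK) start the unfolded protein response, which raises chaperone and degradation genes and slows translation. Macrophages secrete cytokines, complement and proteases, and the IRE1 and XBP1 arm is known to act in their inflammatory response.

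Depth was 23617618 and 22460913 counts in the LUP libraries, against 19949818 and 23172691 in the vehicle libraries, and the 32 genes took 0.546% and 0.538% of them with LUP and 0.447% and 0.455% with vehicle. Cd68, a macrophage marker, stood at 4098 and 4013 TPM (a length-scaled share of all transcripts) with LUP and 4258 and 4161 TPM with vehicle. Icam2, Gata6 and Timd4 of the same marker list were low, each at most 5.38 TPM in any library. The macrophage markers themselves differed between the groups: of 11, 6 rose and 3 fell. Adgre1 (F4/80), which rose, stood at 587 and 584 TPM with LUP and 115 and 123 TPM with vehicle. Lyz2, the most abundant of the 11, was 1.31-fold lower, with 15652 and 15999 TPM with LUP and 22379 and 22088 TPM with vehicle. Mertk and Gata6 also fell. The 11 markers summed to 21567 and 21760 TPM with LUP and 27380 and 27010 TPM with vehicle. Plasma cells, which are rich in these folding genes, were checked by 8 markers, whose TPM summed to 154 and 150.1 with LUP and 206 and 204 with vehicle. Nearly all of that sum was Sdc1, while Jchain, Mzb1, Tnfrsf17 and Pou2af1 had at most 3 reads in any library. The 8 mesothelial and fibroblast markers summed to 349 and 304 TPM with LUP and 198 and 203 TPM with vehicle, mostly Pdpn. Of these 8, 3 were higher with LUP (Pdpn, Col1a1 1.37-fold and Dcn 1.21-fold) and 3 lower (Upk3b 4.67-fold, Krt19 8.04-fold and Krt18 6.98-fold, each with at most 50 counts in any library). Of the 9 neutrophil markers, S100a9, Mpo and Ly6g had no read in any library. S100a8 was 3.09-fold higher, with 89.6 and 86.9 TPM with LUP and 29.2 and 32.3 TPM with vehicle. Camp was also called higher, on 22 and 18 counts with LUP and 0 in both vehicle libraries. The B cell, T and NK cell, mast cell and eosinophil, and dendritic cell lists each summed to at most 6.25 TPM in any library. Ccr7 of the dendritic cell list was 9.77-fold higher, with 3.89 and 4.43 TPM with LUP and 0.43 and 0.48 TPM with vehicle. The part of other cells in the results below was not tested, and in bulk RNA fewer cells of a type cannot be told apart from less RNA per cell.

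With LUP, 23 of the 32 genes rose, 5 fell and 4 did not pass the test. Most chaperones were higher (12 of 13, none lower), with 11 after quantile normalization and 10 with limma on log2(TPM + 1). Most translocon genes were higher too (7 of 9, none lower), with 5 in each of these alternatives. Of the degradation genes, 3 were higher and 2 lower. These counts became 1 higher and 2 lower after quantile normalization, and 0 higher and 1 lower with limma on log2(TPM + 1). All 3 sensors fell while Xbp1 rose. Over all 13355 genes tested, 50.8% passed the edgeR test (adjusted p below 0.05), with 27.1% up and 23.7% down, so a call as such was common and the shares of the 4 classes are to be read against these. The median log2 change, LUP over vehicle, was 0.56 for the chaperones, 0.25 for the translocon genes, 0.06 for the degradation genes and -0.30 for the sensors with Xbp1, beside -0.00 for all genes tested. Of all calls, 53.37% were higher, a share that fell to 41.36% after quantile normalization and to 43.49% with limma on log2(TPM + 1). The balance of calls thus depended on the setting. Both alternatives changed the test as well as the scaling, and their parts were not separated. The changes were modest: Pdia4, the largest of the 32, was 2.15-fold higher, and the largest fall was 1.37-fold.

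**Figure D1:**
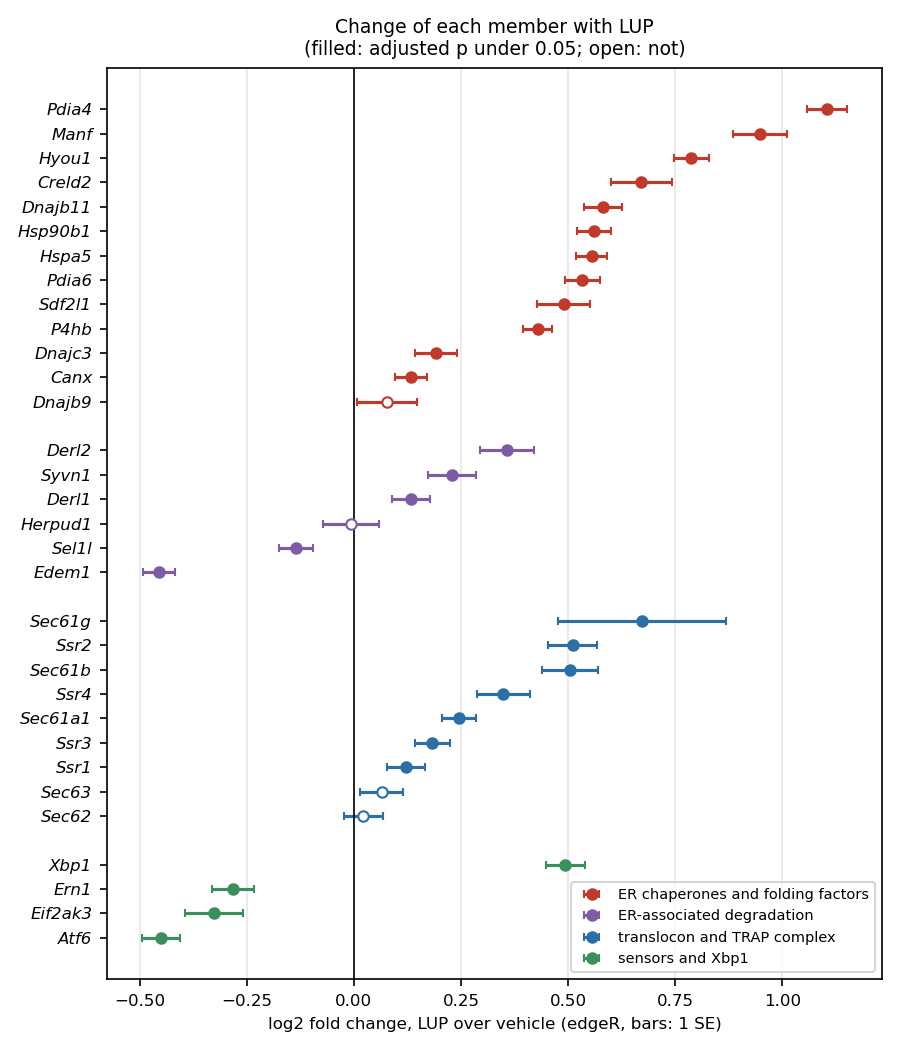
The log2 fold change of each gene, LUP over vehicle, is plotted on the horizontal axis with bars of 1 SE (edgeR, 2 libraries per group), genes grouped and coloured by class. Filled points passed an adjusted p of 0.05: all chaperones but Dnajb9 lie right of 0 and filled, and Ern1, Eif2ak3 and Atf6 lie left of it.

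Summed over the 13 chaperones, the level was 2184 and 2070.4 TPM in the LUP libraries and 1557 and 1638 TPM in the vehicle libraries. The 9 translocon genes summed to 814 and 836 TPM with LUP and 683 and 691.5 TPM with vehicle, and the 6 degradation genes to 302 and 294 TPM with LUP and 327 and 337 TPM with vehicle. Both libraries of a group thus lay on the same side in each of these classes, with the degradation class the one whose sum was lower with LUP. The sums are given as a description, with no test.

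**Figure D2:**
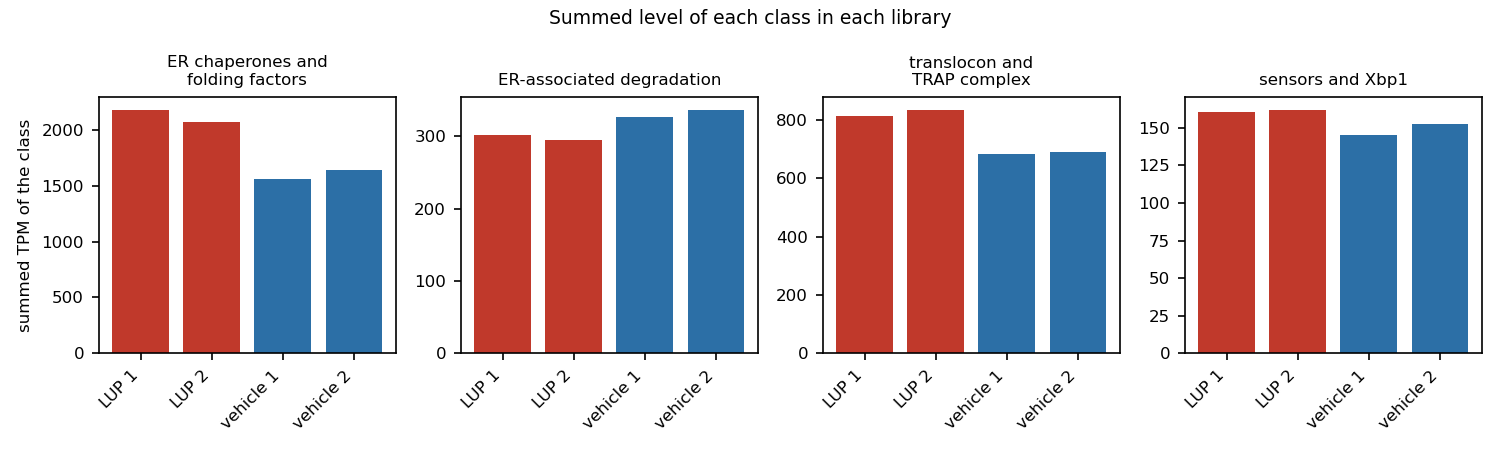
Bars give the summed TPM of each class in each library, LUP in red and vehicle in blue, on axes that start at 0 and differ between panels. The chaperone sums were 2184 and 2070.4 TPM with LUP and 1557 and 1638 TPM with vehicle.

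The chaperones were the most abundant class, and Hspa5, which encodes BiP, the main Hsp70 chaperone of the ER and a brake on all 3 sensors, had 277 and 273 TPM with LUP and 196 and 201 TPM with vehicle. The groups did not overlap, and Hspa5 was 1.47-fold higher with LUP (log2 0.56, SE 0.04, edgeR adjusted p = 1.68e-10). Hsp90b1, the ER member of the Hsp90 family, which folds Toll-like receptors and integrins, stood at 345 and 317 TPM with LUP and 236 and 246 TPM with vehicle, a 1.48-fold rise. The helpers of BiP differed among themselves. Hyou1, a nucleotide exchange factor for BiP, reached 75.2 and 74.97 TPM with LUP against 45.2 and 47.5 TPM with vehicle (1.73-fold). Dnajb11, a J-domain cochaperone that brings unfolded clients to BiP, had 113 and 107 TPM with LUP and 79.8 and 77.9 TPM with vehicle (1.5-fold). Sdf2l1, whose protein forms a complex with those of Dnajb11 and Hspa5, had 97.96 and 101 TPM with LUP and 73.5 and 78.8 TPM with vehicle (1.4-fold). The other J-domain genes differed less between the groups. Dnajc3, whose protein p58IPK also restrains PERK, had 28.4 and 26.1 TPM with LUP and 24.6 and 26.5 TPM with vehicle, groups that overlapped in TPM, and its 1.14-fold rise (log2 0.19) was not called after quantile normalization (log2 0.08, adjusted p = 0.178), with limma on log2(TPM + 1) (log2 0.09, adjusted p = 0.422) or without vehicle replicate 1 (edgeR adjusted p = 0.0535). Dnajb9, whose protein ERdj4 recruits BiP to IRE1 and represses it, had 19.5 and 18.4 TPM with LUP and 18.5 and 19.95 TPM with vehicle, and its log2 change of 0.08 (SE 0.07) did not pass the test (edgeR adjusted p = 0.375) and turned to -0.03 after quantile normalization.

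The 3 disulfide isomerases among the 32 genes, Pdia4, Pdia6 and P4hb, were higher with LUP. Pdia4 (ERp72) was 2.15-fold higher, with 107 and 98.6 TPM in the LUP libraries and 51.8 and 51.6 TPM in the vehicle libraries (log2 1.10, SE 0.05, edgeR adjusted p = 2.05e-13), and each LUP library lay far above both vehicle libraries. Pdia6, an isomerase that also turns IRE1 signalling down, had 177 and 176 TPM with LUP and 128 and 135 TPM with vehicle (1.45-fold). P4hb, the founding protein disulfide isomerase and the most abundant of the 32 genes, had 507 and 482 TPM with LUP and 375 and 406 TPM with vehicle (1.35-fold). Relatives outside the 32 genes, named after their values were seen, went several ways. Pdia3 was 1.42-fold higher, while Pdia5 did not pass the test (log2 0.00, SE 0.25). Of the Tmx genes, Tmx2 was 1.24-fold higher, Tmx1 did not pass the test, and Tmx3 and Tmx4 were 1.11-fold and 1.57-fold lower. Manf and Creld2 encode small secretable ER proteins known as targets of the stress response. Manf, a trophic factor that binds BiP, had 116 and 102 TPM with LUP and 64.3 and 64.2 TPM with vehicle, a 1.93-fold rise; its exons overlap those of Dcaf1 on the other strand by 4.14% of their bases. Creld2, a disulfide isomerase-like protein, had 42.6 and 43.6 TPM with LUP and 28.4 and 29.7 TPM with vehicle (1.59-fold). Canx, the membrane-bound lectin chaperone calnexin, had 278 and 250.5 TPM with LUP and 237 and 254 TPM with vehicle, so the groups overlapped, and its 1.1-fold rise was not called without vehicle replicate 1 (edgeR adjusted p = 0.115) or by limma on log2(TPM + 1) (adjusted p = 0.287). Its soluble counterpart Calr, calreticulin, which is outside the 32 genes, had 1014 and 956 TPM with LUP and 533 and 532 TPM with vehicle (1.99-fold higher).

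**Figure D3:**
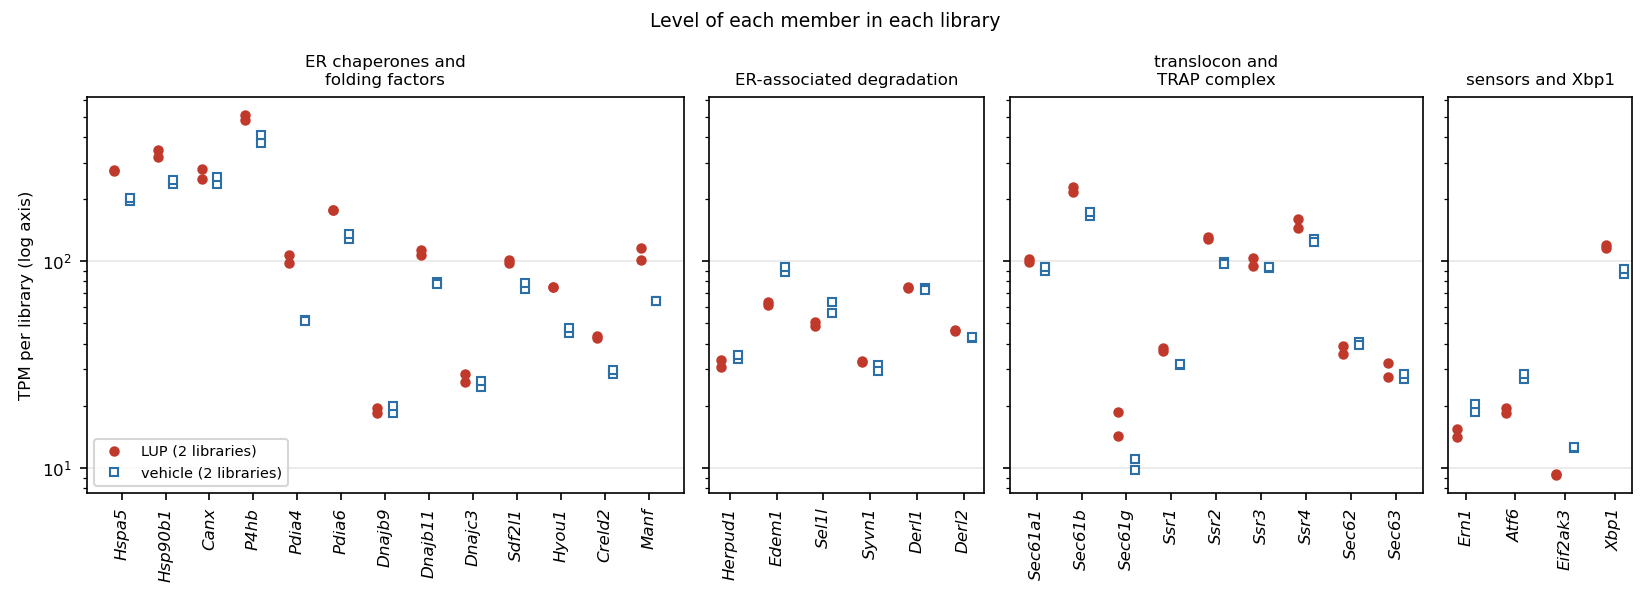
Each point is 1 library, with TPM on a log axis, LUP as filled circles and vehicle as open squares, genes grouped by class. For Pdia4 the LUP libraries sit at 107 and 98.6 TPM and the vehicle libraries at 51.8 and 51.6 TPM, while the 2 groups of Dnajb9 and Canx overlap.

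The promoters of these genes are where ATF6 and XBP1 are known to act, through the ER stress response element (ERSE), spelled CCAAT, 9 bases of any kind, then CCACG. RefSeq promoter windows of GRCm38.p6, from 250 bases before to 50 after the transcript start, were searched on both strands; 26 of the 32 genes matched, with 27 windows. An exact ERSE was present in 7 of the 27 windows (25.9%) and in 39 of all 32851 windows (0.119%), and the element was defined on promoters of this family, so the contrast is a description only. The 7 genes were Canx, Creld2, Dnajc3, Hsp90b1, Hspa5 and Pdia6 among the chaperones and Syvn1 among the degradation genes, and all 7 were called higher with LUP, beside 23 of the 32 genes and 27.1% of all genes tested. The calls of Canx, Dnajc3 and Syvn1 changed in 4, 5 and 4 of 15 alternative settings. The shorter ERSE-II (ATTGG, 1 base, CCACG) was present in 2 of the 27 windows (7.41%), of Dnajb11, which rose, and Herpud1, which did not pass the test, and in 0.0365% of all windows. The element TGACGTGG, known as UPRE, was in none of the 27 windows and in 0.676% of all. Among members with a window but without an exact match were Pdia4, whose rise was the largest, and Xbp1. Atf6, Derl1, Hyou1, Manf, Sec61a1 and Ssr2 had no window and were not searched. A plain CCAAT, which lies within both ERSE types, was found in 20 of the 27 windows (74.1%) and in 37.4% of all. The 250 bases before the start of Hspa5 (chr2:34771840-34772089, plus strand) are shown because this promoter is the model of the element, whose CCAAT and CCACG are in capitals:
Hspa5 promoter: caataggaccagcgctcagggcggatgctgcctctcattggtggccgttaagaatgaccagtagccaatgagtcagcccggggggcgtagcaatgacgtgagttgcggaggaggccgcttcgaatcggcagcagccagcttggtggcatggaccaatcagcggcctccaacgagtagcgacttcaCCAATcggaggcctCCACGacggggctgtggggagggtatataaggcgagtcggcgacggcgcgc

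The sites are shown 5′ to 3′ on the strand of the gene with 10 bases on either side (9 for ERSE-II) so that the fixed bases can be compared with the variable spacer. Capitals mark the fixed bases, and a site on the other strand reads CGTGG first and ATTGG last. They lie at chr2:34772015-34772053 (Hspa5), chr12:17266481-17266519 (Pdia6), chr14:118937817-118937855 (Dnajc3), chr11:50325790-50325828 (Canx, minus strand), chr10:86705628-86705666 and chr10:86705523-86705561 (Hsp90b1, minus strand), chr15:88819510-88819548 (Creld2), chr19:6046522-6046560 (Syvn1), chr8:94386368-94386396 (Herpud1) and chr16:22857843-22857871 (Dnajb11), all on the plus strand where no strand is given:
Hspa5 ERSE: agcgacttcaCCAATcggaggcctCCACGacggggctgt
Pdia6 ERSE: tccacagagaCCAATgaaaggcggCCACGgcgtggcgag
Dnajc3 ERSE: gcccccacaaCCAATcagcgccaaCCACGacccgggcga
Canx ERSE: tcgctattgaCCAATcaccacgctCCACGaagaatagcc
Hsp90b1 ERSE, distal: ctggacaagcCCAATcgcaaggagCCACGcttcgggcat
Hsp90b1 ERSE, proximal, other strand: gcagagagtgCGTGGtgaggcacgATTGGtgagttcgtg
Creld2 ERSE, other strand: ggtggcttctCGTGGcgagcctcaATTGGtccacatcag
Syvn1 ERSE: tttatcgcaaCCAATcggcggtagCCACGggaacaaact
Herpud1 ERSE-II: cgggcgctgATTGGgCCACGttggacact
Dnajb11 ERSE-II: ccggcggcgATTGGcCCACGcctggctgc

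The first base of the element lay 65 bases before the start in Hspa5, 98 in Pdia6, 105 in Dnajc3 and 145 in Canx. In Creld2 it lay 126 bases before the start, in Syvn1 44, and in Hsp90b1 212 and 107. Hsp90b1 was the only member with 2 exact matches in its window, and near matches were not searched. Genes that shared the element did not share a size of change, from 1.1-fold for Canx to 1.59-fold for Creld2. Outside the 32 genes, 30 genes had an ERSE in a window, of which 9 were tested, 2 rose and 4 fell, with a median log2 change of -0.33.

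The degradation genes were called in opposite directions by edgeR, with the calls of most depending on the setting. Edem1, a lectin that extracts misfolded glycoproteins from the folding cycle, had 63.2 and 61.7 TPM with LUP and 88.5 and 93.5 TPM with vehicle, with no overlap. It was 1.37-fold lower with LUP (log2 -0.45, SE 0.04, edgeR adjusted p = 5.39e-09). Sel1l, the scaffold of the ubiquitin ligase that carries out much of this degradation, had 51.1 and 48.4 TPM with LUP and 56.4 and 63.2 TPM with vehicle, and its 1.1-fold fall was not called without vehicle replicate 2 (edgeR adjusted p = 0.12). Its partner Syvn1, the ligase HRD1 itself, had 33.1 and 32.5 TPM with LUP and 31.6 and 29.6 TPM with vehicle and was 1.17-fold higher, a call that limma on log2(TPM + 1) did not make (adjusted p = 0.288). The derlins are membrane proteins of the channel through which substrates leave. Derl2 had 46.6 and 45.7 TPM with LUP and 42.7 and 43.2 TPM with vehicle, and it was 1.28-fold higher by counts but not called by limma on log2(TPM + 1) (adjusted p = 0.19). Its exons share 2.87% of their bases with Mis12 on the other strand. Derl1 had 74.4 and 75.2 TPM with LUP and 74.0 and 72.3 TPM with vehicle, a 1.1-fold rise by counts. It was not called in 8 of 15 alternative settings, and its log2 change ran from 0.0049 to 0.174 over all settings. Herpud1, a membrane protein that organises the ligase complex, had 33.4 and 30.9 TPM with LUP and 33.5 and 35.4 TPM with vehicle, a log2 change of -0.01 (SE 0.06) that did not pass the test and was 0.02 without LUP replicate 2.

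Within the Sec61 channel, all 3 subunits rose. Sec61a1, the pore, had 102 and 99.0 TPM with LUP and 89.9 and 93.6 TPM with vehicle (1.19-fold by counts, edgeR adjusted p = 4.48e-05; adjusted p = 0.0928 with limma on log2(TPM + 1)). Sec61b, the beta subunit, had 216 and 228 TPM with LUP and 165 and 172 TPM with vehicle, a 1.42-fold rise. Sec61g, the gamma subunit, was low in the table, at 14.3 and 18.6 TPM with LUP and 9.75 and 11.1 TPM with vehicle, and rested on few reads, with 116 and 146 expected counts under LUP against 69.8 and 87.6 under vehicle. Those counts were not whole numbers in every library, and the reason was not tested. Its 1.59-fold rise was not called without LUP replicate 2 (edgeR adjusted p = 0.116) or by DESeq2 (adjusted p = 0.0909). Sec62 and Sec63, which pull proteins through the channel after translation, did not pass the test. Sec62 had 39.1 and 35.7 TPM with LUP and 40.6 and 39.3 TPM with vehicle (log2 0.02, SE 0.05, and -0.10 after quantile normalization), and Sec63 had 27.6 and 32.1 TPM with LUP and 27.1 and 28.6 TPM with vehicle (log2 0.06, SE 0.05, and -0.03 after quantile normalization).

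TRAP, the translocon-associated complex that helps certain signal sequences enter the channel, is built from the products of Ssr1, Ssr2, Ssr3 and Ssr4. Ssr2 had 128 and 130.2 TPM with LUP and 98.6 and 97.1 TPM with vehicle and was 1.42-fold higher (edgeR adjusted p = 4.25e-07). Ssr4 had 145 and 160.4 TPM with LUP and 128 and 124 TPM with vehicle (1.27-fold). The folds of Ssr3 and Ssr1 were smaller. Ssr3 had 104 and 95.1 TPM with LUP and 92.4 and 94.2 TPM with vehicle (1.14-fold by counts; adjusted p = 0.289 with limma on log2(TPM + 1)). Ssr1 had 38.2 and 36.9 TPM with LUP and 31.3 and 31.7 TPM with vehicle, and its 1.09-fold rise by counts was lost without vehicle replicate 1 or 2 (edgeR adjusted p = 0.232 and 0.0829) and turned to a log2 change of -0.00 after quantile normalization. Over all 32 genes the TPM of the groups did not overlap in 28 cases, beside 69.9% of all genes tested.

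The sensors themselves fell. Atf6, a membrane-bound transcription factor that is cut free in the Golgi under stress, had 19.5 and 18.4 TPM with LUP and 27.0 and 28.4 TPM with vehicle, and the groups were well apart. The gene was 1.37-fold lower with LUP (log2 -0.45, SE 0.04, edgeR adjusted p = 6.17e-08). Eif2ak3, which encodes the kinase PERK, had 9.24 and 9.31 TPM with LUP and 12.4 and 12.6 TPM with vehicle (1.25-fold lower, edgeR adjusted p = 0.000524). Ern1, which encodes the kinase and ribonuclease IRE1, had 15.4 and 14.1 TPM with LUP and 18.8 and 20.4 TPM with vehicle (1.22-fold lower, edgeR adjusted p = 8.42e-05). In both, each LUP library was below each vehicle library. Xbp1, whose mRNA IRE1 splices to give the active transcription factor, went the other way, with 116 and 120.3 TPM with LUP and 87.1 and 91.4 TPM with vehicle, a 1.41-fold rise (edgeR adjusted p = 3.3e-08). The table counts genes, so spliced and unspliced Xbp1 were not separated here, and neither kinase activity nor cleavage of ATF6 was measured.

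**Figure D4:**
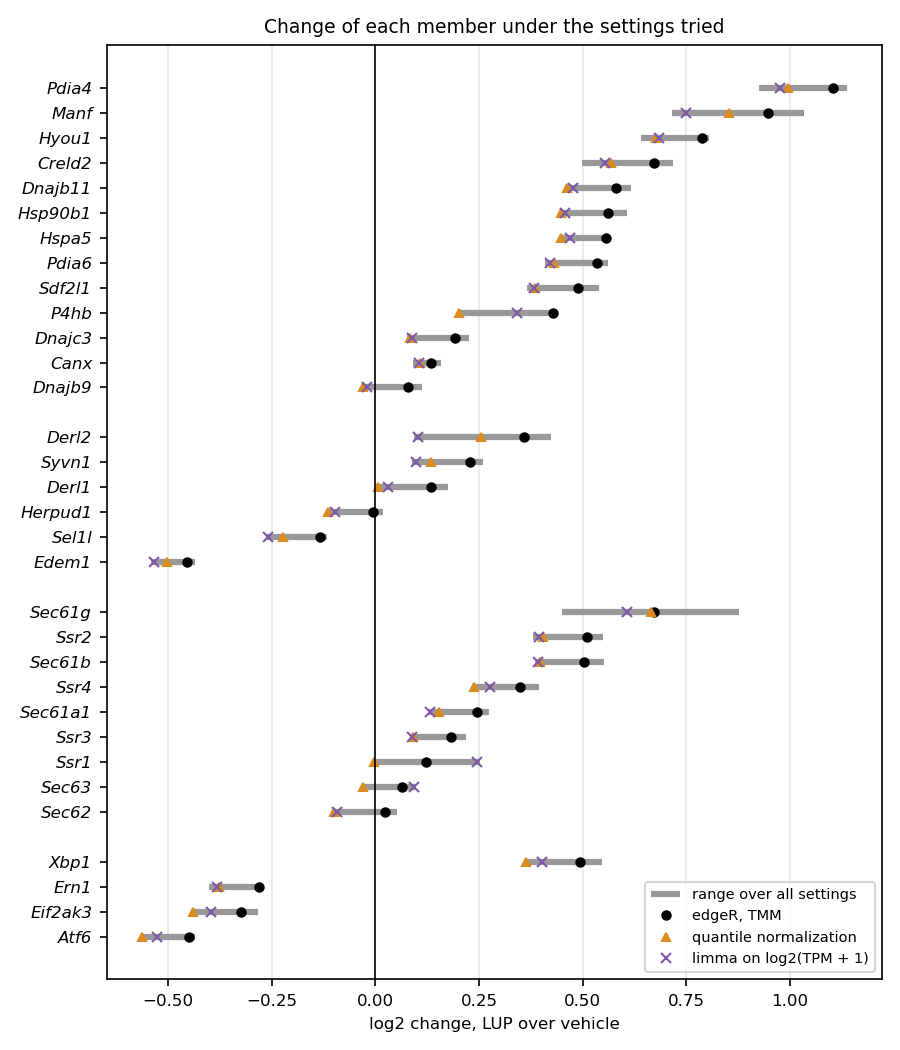
Grey bars give the range of each gene's log2 change over all settings tried, with the edgeR value as a black circle, quantile normalization as a triangle and limma on log2(TPM + 1) as a cross. Pdia4 stays between 0.92 and 1.14 and Atf6 between -0.56 and -0.44, while the bars of Dnajb9, Herpud1, Sec62, Sec63 and Ssr1 cross 0.

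Genes around the 32 were described through 8 further lists of 147 genes, of which 145 were tested, 57 rose and 24 fell (39.3% and 16.6%). Over all genes tested the shares were 27.1% higher and 23.7% lower, and the counts of each list are to be read against these. Of 36 other folding factors, 15 rose and 5 fell: beside Calr, the prolyl isomerase gene Ppib rose 1.23-fold, while Erp29, an ER protein with a thioredoxin fold, had 165 and 176 TPM with LUP and 209.6 and 204 TPM with vehicle, and Prdx4, the peroxiredoxin of the ER, had 48.9 and 57.3 TPM with LUP and 67.3 and 64.4 TPM with vehicle, both called lower. Of the 13 genes of the oligosaccharyltransferase, which attaches glycans to entering proteins, 7 rose and 1 fell. Rpn1 (187 and 179.8 TPM with LUP, 129 and 133 TPM with vehicle) and Rpn2 (199.5 TPM in both LUP libraries, 148 and 151 TPM with vehicle) were higher, and the catalytic subunit gene Stt3b (65.5 and 60.6 TPM with LUP, 76.8 and 80.8 TPM with vehicle) was lower. Of 26 other degradation genes tested, 9 rose and 5 fell (34.6% and 19.2%), not far from the shares over all genes tested. The balance turned to 5 higher and 11 lower after quantile normalization and 3 higher and 6 lower with limma on log2(TPM + 1). Vcp, the ATPase that extracts substrates from the membrane, rose 1.52-fold and Aup1, a lipid droplet and degradation factor, 1.27-fold, while Herpud2 and Edem2 were 1.39-fold and 1.11-fold lower. Of 31 genes of signal peptidase, signal recognition and membrane insertion, 13 rose and 4 fell, with Get3 and Ncln 1.3-fold and 1.65-fold higher and the signal peptidase subunit Spcs2 and the insertase subunit Emc8 1.16-fold and 1.13-fold lower by counts. The TPM of Emc8 overlapped between the groups, with 72.1 and 67.2 TPM with LUP and 73.0 and 64.0 TPM with vehicle.

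Among the lists of the stress response arms, of 12 genes of the PERK arm, which acts through ATF4, 5 rose and none fell, while 2 were called lower after quantile normalization and 1 with limma on log2(TPM + 1). With a filter of at least 5 TPM, 3 were higher and 1 lower, and 1 was lower without LUP replicate 2. Cebpb, a transcription factor of inflammatory genes, had 262 and 214 TPM with LUP and 151 and 141 TPM with vehicle, and Atf5 rose 1.11-fold by counts while its TPM overlapped between the groups. The others called higher by edgeR, named after their values were seen, were Asns, Nupr1 and Ddit4 (1.27-fold, 1.63-fold and 2.57-fold). Ddit4 was low, at most 3.87 TPM in any library. Atf4 and Ddit3, also named after their values were seen as the best known genes of this arm, did not pass the test. Atf4 missed the threshold narrowly (log2 -0.09, SE 0.04, edgeR adjusted p = 0.0545). It had 299 and 305 TPM with LUP and 345 and 350.2 TPM with vehicle. Ddit3, which encodes the death-linked factor CHOP, had 95.5 and 98.3 TPM with LUP and 100.05 and 99.2 TPM with vehicle. Its log2 change was 0.07 (SE 0.06, edgeR adjusted p = 0.4). Of 15 other regulators tested, 6 rose and 3 fell (40% and 20%, beside 27.1% and 23.7% of all genes tested). Tmbim6, an ER calcium and IRE1 regulator, and Rtcb, the ligase that joins the cut ends of Xbp1 mRNA, were 1.25-fold and 1.18-fold higher. Nfya, a subunit of the factor that binds CCAAT, and the ER membrane protein gene Wfs1 were 1.42-fold and 1.41-fold lower. Among 6 genes known as targets of IRE1-dependent mRNA decay, 2 rose (Hgsnat and Pdgfrb) and 2 fell (Bloc1s1 and Col6a1). That is 33.3% each way, beside 27.1% higher and 23.7% lower over all genes tested. Pdgfrb and Col6a1 were low, at most 1.6 and 10.85 TPM in any library. Bloc1s1, the target best known across cell types, had 91.8 and 98.5 TPM with LUP and 132 and 128 TPM with vehicle. Of 6 receptors for degradation of the ER by autophagy, 4 fell and none rose, with Ccpg1 at 28.5 and 29.2 TPM with LUP and 47.4 and 47.5 TPM with vehicle and Calcoco1 at 22.7 and 20.3 TPM with LUP and 38.3 and 40.4 TPM with vehicle.

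**Figure D5:**
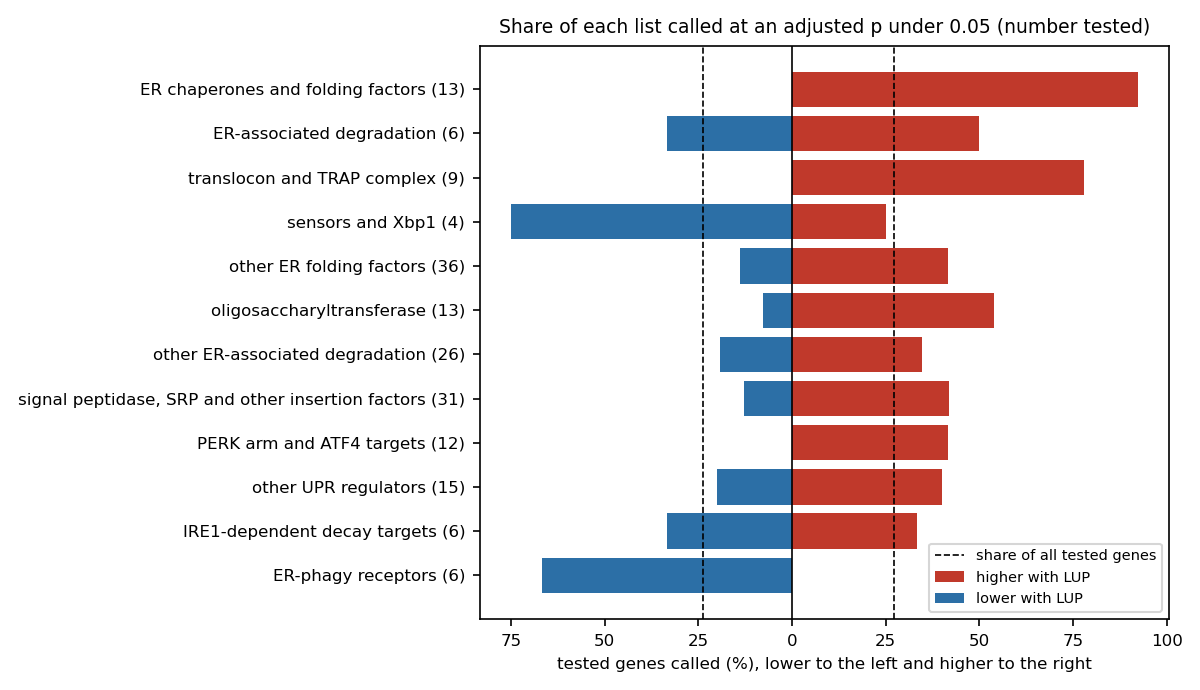
Bars give the share of tested genes of each class or list called higher with LUP (right) or lower with LUP (left), with the number tested in parentheses and dashed lines at the shares over all genes tested, 27.1% higher and 23.7% lower. The chaperones (92.3% higher) and translocon genes (77.8% higher) reach farthest right, and the sensors with Xbp1 (75% lower) and the autophagy receptors (66.7% lower) farthest left.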

How the data were processed

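RNA of 4 libraries (LUP and vehicle, 2 each) was measured. The authors' table was used as deposited: expected counts per gene, not scaled between libraries, TPM per library and group, and the fold (ratio), log2 fold, p-value and adjusted p-value of their own comparison. Its test is not named there, and neither are genome build and annotation. The tools fastp, HISAT2, StringTie and RSEM appear, without versions or roles, per the submitters' processing notes. Expected counts were rounded and tested with edgeR 4.0.16 (R 4.3.3; quasi-likelihood test, TMM, default filter on low counts, treatment as the only term), with Benjamini-Hochberg adjustment over all 13355 genes tested. A gene is called at an adjusted p under 0.05. Rose, fell and fold refer to this fit, and TPM to the authors' values. Alternatives used limma 3.58.1 and DESeq2 1.42.0. Fits were tested on simulated data. The 32 genes and all lists were chosen with earlier results of these data known. From each further list up to 2 called genes in each direction with the highest mean TPM are named; others are said to be chosen after their values were seen. List symbols all matched, 10 through older names in RefSeq. Ddit3, on 2 rows, is given from the row with more reads. Of the 32 genes, 23 had whole counts in every library (within 0.001). No source used here says whether the kit marks strand, and in GENCODE M21 no other gene shared more than 12.8% of a member's exonic bases. Libraries of a group share only a number with those of the other group. Promoters come from RefSeq.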

Additional observations from a re-analysis of the deposited data

How the results depend on the processing

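Over 15 alternatives, 18 of the 32 genes were called in the same direction in every one, 14 higher (Hspa5, Hsp90b1, P4hb, Pdia4, Pdia6, Dnajb11, Sdf2l1, Hyou1, Creld2, Manf, Sec61b, Ssr2, Ssr4 and Xbp1) and 4 lower (Edem1, Ern1, Atf6 and Eif2ak3). The share of all genes tested that was called in every setting was not computed. In the edgeR fit alone, 50.8% of all genes tested were called. Members called higher numbered 16 with limma on log2(TPM + 1) and 18 after quantile normalization, 20 with DESeq2 and 20 to 23 when 1 library was left out, where the lone library is assumed to vary like the other group. Members called lower numbered 4 or 5 in all settings. Of the degradation genes, 1 was higher after quantile normalization and 0 with limma on log2(TPM + 1), where 1 was lower. With 1 library left out, 2 to 3 were higher and 1 to 2 lower. In the further lists, 35 genes were higher with limma on log2(TPM + 1) and 41 lower after quantile normalization. Of all genes, 1935 were higher with limma on log2(TPM + 1) and 2069 lower with DESeq2. With a replicate block, 22 members were higher and 5 lower, and 3533 and 3073 of all genes. Replicate numbers are shared labels only (correlation of deviations -0.066 over 13355 genes). Pairing the numbers crosswise, an alternative added after seeing the data, gave 3835 higher and 3405 lower calls. Reversals of sign concerned genes near 0. Dnajb9 was at -0.030 after quantile normalization and at -0.022, -0.021 and -0.017 with limma on log2(TPM + 0.1), log2(TPM + 1) and log2(TPM + 5). Sec62 was at -0.10 after quantile normalization, at -0.096, -0.094 and -0.085 with the same 3 limma settings, at -0.020 with a filter of at least 5 TPM, and ran from -0.00592 to 0.0509 with 1 library left out (-0.00021 without LUP replicate 1). Sec63 was at -0.030 and Ssr1 at -0.0048 after quantile normalization, and Herpud1 at 0.00073 without a filter on low counts, and from -0.026 without LUP replicate 1 to 0.0183 without LUP replicate 2. The causes were not tested. Sec61g had the fewest counts of the 32 genes, 69.8 to 146 a library, and the precision of its value is limited accordingly.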

Other observations

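In 3 pairs of paralogs, chosen after their values were seen, the members had opposite directions; other relatives shared one, such as Edem1, Edem2 and Edem3, all lower, and Creld1 and Creld2, both higher. Of the catalytic subunits of the oligosaccharyltransferase, Stt3a, which works at the translocon, had 168 and 122 TPM with LUP and 89.0 and 95.6 TPM with vehicle (1.27-fold higher, edgeR adjusted p = 1.96e-06), while Stt3b was 1.17-fold lower. Atf6b, the paralog of Atf6, had 77.0 and 74.7 TPM with LUP and 65.7 and 66.7 TPM with vehicle (1.24-fold higher, edgeR adjusted p = 1.18e-05), while Atf6 was 1.37-fold lower. The oxidase gene Ero1a was 1.34-fold higher by counts, with TPM that overlapped between groups (29.2 and 24.1 with LUP, 26.7 and 20.4 with vehicle), and Ero1b was 1.29-fold lower, with 13.5 and 13.1 TPM with LUP and 18.4 and 19.1 TPM with vehicle. The difference between paralogs was not tested.

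Of the 32 genes, 25 passed an adjusted p of 0.05 in the authors' deposited table, and LUP was the higher group for 20 and the lower for 5. That comparison used the same libraries. The share of all genes that passed in it was not computed, so these counts have no background beside them. The authors' fold is vehicle over LUP, such as 0.464 for Pdia4 and 1.36 for Atf6. Derl1, Sec61g and Ssr1 were called here and had adjusted p-values of 0.0903, 0.0948 and 0.17 in the authors' deposited table.

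Counts and TPM of a gene are tied by the length the authors' estimate assigns to it in each library. The ratio of counts to TPM, scaled to the median gene of each library, was on average 0.853 times as high with LUP as with vehicle for Ssr1 and 1.11 times as high for Derl2, without overlap between the groups. Over 9258 genes with at least 100 counts in each library, the central range of this ratio (percentiles 5 to 95) was 0.896 to 1.11. The log2 change of Ssr1 was 0.12 by counts and 0.25 by limma on log2(TPM + 1), and that of Derl2 0.36 and 0.10. The mix of transcripts was not analysed here.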
